A study of Sus scrofa with 8 samples.

Results

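The glia of the olfactory nerve and the Schwann cells of other nasal nerves were followed in the olfactory epithelium (OE) of sows through 8 genes, SOX10, S100B, FABP7, FRZB, CDH19, PMP22, MBP and NCMAP. The genes were chosen by name, by looking up the Ensembl pig gene names (Sscrofa11.1). The name table paired 6 of the 8 with an identifier among the 22516 genes of the files. S100B and NCMAP were not paired and were not analysed here. All 6 genes had counts in every one of the 8 libraries and entered the comparison of the groups.

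The libraries came from 4 sows, offspring of Landrace sires and Rongchang dams that were 8 months old and in estrus. The control group (2 sows, 4 libraries) received no solution. In the androstenone treatment group (2 sows, 4 libraries), the nasal cavity was sprayed 30 min before slaughter with Boarmate, a product that holds the boar pheromone androstenone. Both sides of the nose were sampled as separate libraries, but the labels do not tie a library to its sow. The p-values below therefore treat libraries as replicates and measure the spread between libraries, although each group held only 2 animals. The control sows were not sprayed with a carrier, so that the spraying itself and androstenone cannot be told apart.

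The axons of olfactory sensory neurons leave the epithelium in bundles that run through the lamina propria to the olfactory bulb. Olfactory ensheathing glia wrap many of these thin axons together and form no myelin. Schwann cells of the trigeminal and autonomic nerves of the nasal mucosa wrap their axons singly or in small groups, and some of them form myelin. Both kinds of glia derive from the neural crest. The bundles lie below the epithelium, so that their share of a sample varies with the tissue taken along.

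The deposited counts of control 1 summed to 4178330 and those of the remaining libraries to between 81580146 and 100685566. The study lists about as many clean reads for control 1 as for the other libraries, so that fewer reads were not listed for it, and how its low total arose was not tested. In the same values, 4269 genes were listed at 0 TPM in control 1 and 2363 to 2913 in the others, and the intervals below take the deposited counts as they are. Its counts of 0 allowed up to 0.718 CPM (counts scaled to the library total), against at most 0.0368 CPM for a 0 elsewhere. The 10 most abundant genes made up 29.4% of control 4 and between 6.57% and 9.02% of every other library. No pair of libraries was within sampling noise of each other. By the mean chi-square per gene between libraries, androstenone 1 and 2 (109) and androstenone 3 and 4 (114) were close. The other pairs of that group were at 715 to 1085. Whether such close libraries come from the same sow is not in the labels. They may not be separate observations, and leaving out a single library does not remove such a pair. By the same measure, control 3 was nearer to androstenone 1 (366) and androstenone 2 (351) than to control 2 (1359) or control 4 (2929). Pairs with control 1, whose total was low, were at 35.4 to 270 and cannot be set against these. Levels below are in TPM, which corrects for the length of the transcripts as well as the depth, unless CPM is named. TPM does not correct for a large share taken by a few genes, as in control 4. The TMM scaling factor of control 4 was 0.687, against 0.969 to 1.17 in the other libraries. Most genes of control 4 thus lie lower in TPM than in TMM-scaled CPM, relative to the other libraries. In bulk tissue, fewer cells of a type and less RNA per cell cannot be told apart.

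Of the 6 genes, 5 were highest in control 2. MBP and PMP22 had means above 10 TPM, and FRZB, SOX10, FABP7 and CDH19 means below 5 TPM. Over all genes tested, 21.8% were highest in that library. SOX10, CDH19 and PMP22 were low in the same 3 libraries, which were control 3, androstenone 1 and androstenone 2. MBP was the exception, with the highest level of the 6 genes and its maximum in control 3. None of these genes passed the cutoff for a difference between the control and the androstenone treatment groups, beside 6.42% of all genes tested.

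**Figure D1:**
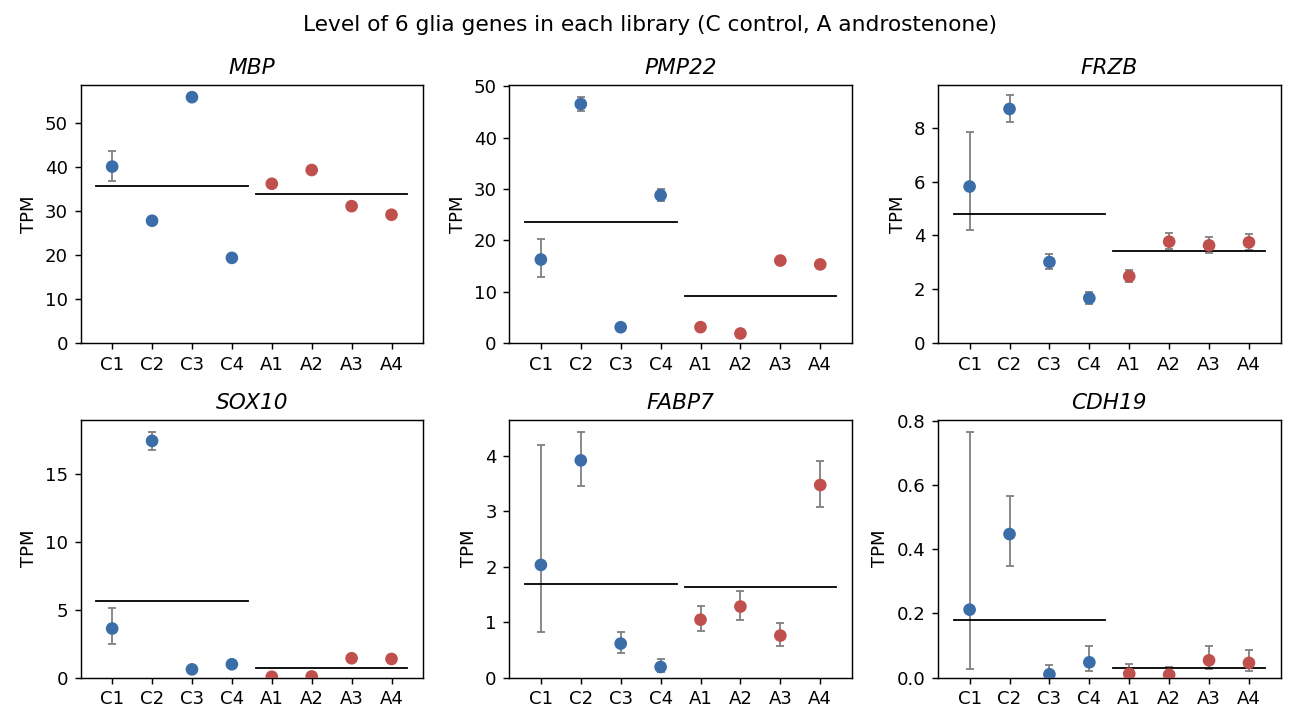
Level of each glia gene in TPM (vertical axis, from 0) in the 4 control libraries (C1 to C4, blue) and the 4 androstenone libraries (A1 to A4, red), with black lines at the group means and 95% exact Poisson intervals that cover counting error only. Control 2 is highest for all genes but MBP, and the groups overlap in all 6 panels.

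SOX10 (ENSSSCG00000039315) is on chromosome 5 (9890439 to 9901746, Sscrofa11.1). It encodes the transcription factor that specifies and maintains peripheral glia. Melanocytes and secretory gland cells also use it. Its level in the control libraries 1 to 4 was 3.61, 17.4, 0.611 and 0.984 TPM. In the androstenone libraries 1 to 4 it was 0.0687, 0.0909, 1.43 and 1.38 TPM. The level in control 2 was 4.82 times that of the next library, control 1, and 253 times that of androstenone 1. Control 3 and control 4 lay below androstenone 3 and androstenone 4, so that the groups overlapped. Control 2 held 68.1% of the SOX10 signal summed over the 8 libraries, against a median of 13.0% over the 15945 genes with a mean of at least 1 CPM. With 31 counts in control 1, the 95% exact Poisson interval of its level was 2.45 to 5.13 TPM.

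CDH19 (ENSSSCG00000004885), on chromosome 1 from 155669361 to 155758550, encodes a cadherin of the Schwann cell lineage and was the rarest of the 6. Its level was 0.212, 0.447, 0.0105 and 0.0478 TPM in the control libraries 1 to 4. In the androstenone libraries it was 0.0122, 0.00917, 0.0540 and 0.0461 TPM. Control 2 was highest, and control 3, androstenone 1 and androstenone 2 were lowest, each with 2 counts. Over the 8 libraries CDH19 had 104 counts, of which 70 lay in control 2. The 2 counts of control 1 leave an interval of 0.0257 to 0.765 TPM, so that control 1 cannot be placed above or below control 2 from the deposited counts.

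PMP22 (ENSSSCG00000037832), on chromosome 12 from 58679773 to 58734195, encodes a membrane protein of compact peripheral myelin that fibroblasts and epithelial cells also make. It was at 16.3, 46.6, 3.06 and 28.8 TPM in the control libraries 1 to 4 and at 3.07, 1.84, 16.05 and 15.3 TPM in the androstenone libraries. As for SOX10 and CDH19, control 2 was highest, and control 3, androstenone 1 and androstenone 2 were lowest. Control 4 was second for PMP22, whereas it was near the middle for SOX10 and CDH19. Control 4 was also the library with the most cartilage and fibroblast transcripts, at 590.5 and 49016 TPM summed over those lists.

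FRZB (ENSSSCG00000016018), on chromosome 15 from 88332856 to 88377275, encodes a secreted antagonist of Wnt ligands that ensheathing glia and cartilage share. It was at 5.82, 8.70, 3.01 and 1.67 TPM in the control libraries and at 2.48, 3.77, 3.63 and 3.74 TPM in the androstenone libraries. The androstenone libraries lay within the range of the control libraries. FABP7 (ENSSSCG00000004234), on chromosome 1 from 39872198 to 39876272, encodes a fatty acid-binding protein of radial glia and ensheathing glia. Its level was 2.03, 3.91, 0.614 and 0.193 TPM in the control libraries and 1.04, 1.28, 0.758 and 3.47 TPM in the androstenone libraries. FABP7 was thus nearly as high in androstenone 4 as in control 2, and the intervals of these libraries overlapped (3.07 to 3.91 and 3.44 to 4.43 TPM).

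MBP (ENSSSCG00000038767), on chromosome 1 from 147649516 to 147685289, encodes the major basic protein of myelin. The same locus also gives rise to golli transcripts, which start upstream and are found in other cells, including leukocytes, and the gene values do not separate the transcripts. MBP was at 40.1, 27.8, 55.8 and 19.3 TPM in the control libraries and at 36.2, 39.3, 31.1 and 29.1 TPM in the androstenone libraries. Its highest and lowest levels, in control 3 and control 4, differed by 2.89 times, the narrowest range of the 6 genes. Control 2, the library with the most SOX10, CDH19, PMP22, FRZB and FABP7, was second lowest for MBP.

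Ordered by mean level over the 8 libraries, MBP came first, at 34.8 ± 10.9 TPM (SD, n = 8 libraries), and PMP22 second, at 16.4 ± 15.3 TPM. MBP was the higher of the pair in 6 of 8 libraries. FRZB followed at 4.10 ± 2.22 TPM, SOX10 at 3.20 ± 5.85 TPM, FABP7 at 1.66 ± 1.37 TPM and CDH19 at 0.105 ± 0.153 TPM. PMP22 exceeded FRZB in 7 libraries, FRZB exceeded SOX10 in 7, and FABP7 exceeded CDH19 in all 8. SOX10 exceeded FABP7 in 4 of 8, so that this pair had no fixed order. The ranges of all 5 neighbouring pairs overlapped.

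The genes also differed in how much they varied between libraries. The coefficient of variation of TPM was 183% for SOX10 and 146% for CDH19, higher than in 99.3% and 98.4% of the 15945 genes with a mean of at least 1 CPM, a mean that CDH19 itself did not reach. PMP22 (93.3%), FABP7 (82.2%) and FRZB (54.0%) were also above the median gene, at 31.9%. MBP was at 31.2%, close to that median. With control 2 set beside the highest of the other 7 libraries, the ratio was 4.82 for SOX10, 2.11 for CDH19, 1.62 for PMP22, 1.496 for FRZB and 1.13 for FABP7.

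Likeness of pattern was measured as the root mean square (RMS) difference of log2 CPM over the 8 libraries, after each gene was centred on its mean. Among the 6 genes, the closest pairs were FRZB with MBP (RMS 0.72), FABP7 with FRZB (0.79) and CDH19 with PMP22 (0.91). A small RMS here reflects small variation in both genes as well as a shared order of libraries. SOX10 and MBP were farthest apart (2.54), followed by SOX10 and FABP7 (2.20). Over the other genes with a symbol and a mean of at least 1 CPM, CYTL1 (RMS 0.65) and DACT2 (0.85) were most like SOX10. CADM3 (0.30), a cell adhesion molecule of neurons and glia, and SLCO1A2 (0.35), an organic anion transporter, were most like CDH19. This match is limited, since log2 CPM was taken with a prior count of 2. CDH19 had 2 counts in control 3, androstenone 1 and androstenone 2, which lay at -1.47, -1.47 and -1.48 from its mean. Its low values are thus set largely by the prior. For PMP22 they were ARHGEF25 (0.15) and CHST1 (0.18), for FRZB RIMS3 (0.23) and FOXQ1 (0.24), and for MBP NIF3L1 (0.075) and WDR53 (0.091). FCRL4 (0.39), a receptor of memory B cells, and PDCD1 (0.43), the T cell checkpoint receptor PD-1, were most like FABP7. All pairs share the 8 libraries and their depths.

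The groups were compared with edgeR's quasi-likelihood test. A gene was called where its unadjusted p was below 0.05 and its level at least doubled or halved (log2 fold change beyond 1 in size). This called 1368 of 21318 genes tested (6.42%), of which 934 (4.38%) were lower and 434 (2.04%) higher in the androstenone treatment group. Of the 6 glia genes, 0 were called. With p adjusted by Benjamini-Hochberg across the 21318 genes, 0 passed in edgeR's quasi-likelihood test, against 2415 (11.3%) at an unadjusted p below 0.05. After the same adjustment 200 (0.938%) passed in edgeR's likelihood ratio test. In DESeq2 670 (3.14%) passed after its default adjustment, which leaves out genes that it filters or flags as outliers. None of the 6 was among the genes that passed in either. The groups did not overlap in TPM for 0 of the 6, beside 5.39% of all genes tested (3.59% lower and 1.79% higher in the androstenone treatment group).

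**Figure D2:**
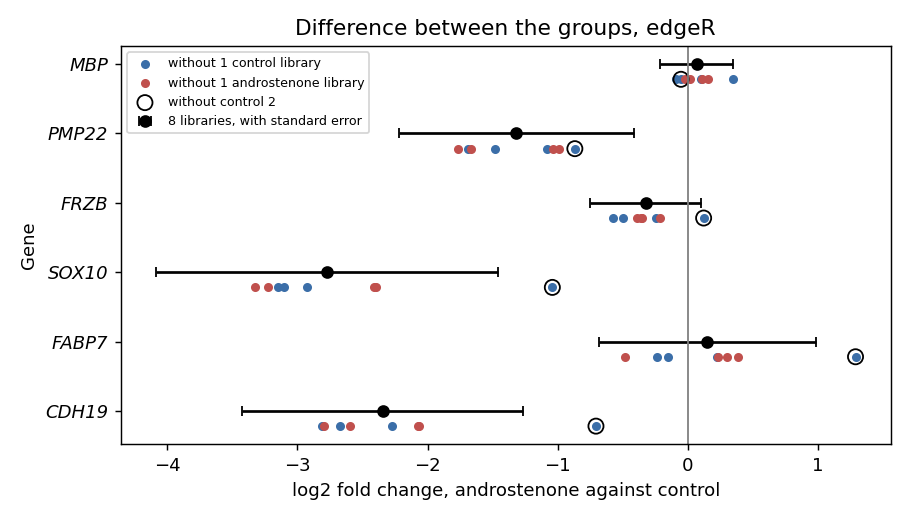
Log2 fold change of each glia gene in the androstenone treatment group against the control group (horizontal axis), from edgeR, as black points with the standard error and, below them, as small points with 1 library left out. The ringed points, without control 2, lie at the right end for 5 of the 6 genes, and SOX10 moves from -2.77 to -1.04.

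SOX10 and CDH19 had the lowest fold changes. SOX10 was at 10.1 ± 13.8 CPM in the control group and 1.48 ± 1.52 CPM in the androstenone treatment group (SD, n = 4 libraries each). Its log2 fold change was -2.77 with a standard error of 1.32 (edgeR quasi-likelihood, adjusted p = 0.461). CDH19 was at 0.325 ± 0.337 and 0.0605 ± 0.0468 CPM, and its log2 fold change was -2.35 with a standard error of 1.08 (edgeR quasi-likelihood, adjusted p = 0.456). Both genes missed the unadjusted cutoff in this test. Both were past it in DESeq2 (adjusted p = 0.174 for SOX10 and 0.242 for CDH19), which called 4.84% of all genes as lower. The same held in edgeR's likelihood ratio test (adjusted p = 0.313 and 0.351), which called 6.56%.

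The values of SOX10 and CDH19 rested on control 2. Without it, the log2 fold change was -1.04 for SOX10 and -0.71 for CDH19, neither was called, and 3.11% of all genes were called as lower. Without control 3, the control library with the least SOX10 and CDH19, both passed the unadjusted cutoff, at -3.15 for SOX10 and -2.81 for CDH19 (edgeR adjusted p = 0.252 and 0.202). That setting called 6.89% of all genes as lower. Without control 4, CDH19 passed at -2.68 (edgeR adjusted p = 0.501), where 3.71% of all genes were called as lower.

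PMP22 was at 26.3 ± 20.1 CPM in the control group and 10.6 ± 8.83 CPM in the androstenone treatment group. A log2 fold change of -1.32 with a standard error of 0.90 was not called (edgeR quasi-likelihood, adjusted p = 0.581). Without control 2 its log2 fold change was -0.87. FRZB had a log2 fold change of -0.33 (standard error 0.43), which turned to 0.12 without control 2. FABP7 was at 0.15 (standard error 0.83) and MBP at 0.07 (standard error 0.28). The direction of FABP7 turned with control 3, control 4 or androstenone 4 left out, and that of MBP with control 2, control 4 or androstenone 2 left out. Without control 2, FABP7 was at 1.29. The median log2 fold change of the 6 genes was -0.82, beside -0.02 for all genes tested, and 4 of the 6 were below 0, beside 51.8% of all genes.

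Other genes of the same glia were given by 2 further lists. The first held 15 genes of the glial lineage and of glia without myelin, of which 14 were paired with an identifier and tested. Of these, 0 were called in either direction, beside 6.42% of all genes tested. Their median log2 fold change was -1.01, beside -0.02 for all genes. In control 2, 5 of the 14 were highest, beside 21.8% of all genes. SERPINE2, a protease inhibitor, ERBB3, the neuregulin receptor that Schwann cells depend on, and TFAP2A, a transcription factor of the neural crest, were the most abundant. ERBB3, which epithelial cells also express, was at 10.9 to 50.1 TPM and highest in control 3. SERPINE2 was at 160 TPM in control 4 and at 8.09 to 32.8 TPM in the other libraries. TFAP2A was at 11.3 to 20.6 TPM.

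The second list held 15 genes of myelin and of myelinating Schwann cells, of which 14 were tested. DRP2, a dystrophin-related protein of the Schwann cell membrane, was called as lower in the androstenone treatment group, and 13 did not pass. Of all genes tested, 4.38% were called as lower. DRP2 had a log2 fold change of -2.51 with a standard error of 0.96 (edgeR quasi-likelihood, adjusted p = 0.416). The call was lost without control 2 (-1.27), androstenone 1 (-2.39), androstenone 2 (-2.63) or androstenone 3 (-2.20). DRP2 was at 0, 0.436, 0.0417 and 0.105 TPM in the control libraries 1 to 4 and at 0.00686 to 0.0466 TPM in the androstenone libraries. Control 2 was highest again. The 0 of control 1 allowed up to 0.718 CPM, a value in CPM that is not to be read against these TPM levels. For DRP2 the mean of the control group was 0.651 in CPM and 0.146 in TPM. The most abundant genes of this list, CNP (27.5 to 76.7 TPM), PLLP (9.91 to 22.2 TPM) and FA2H (1.35 to 12.0 TPM), also occur outside myelin, and none of them was highest in control 2. Of the 14 genes tested, 8 were highest there, beside 21.8% of all genes tested. The median log2 fold change of the list was -0.11, beside -0.02 for all genes.

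**Figure D3:**
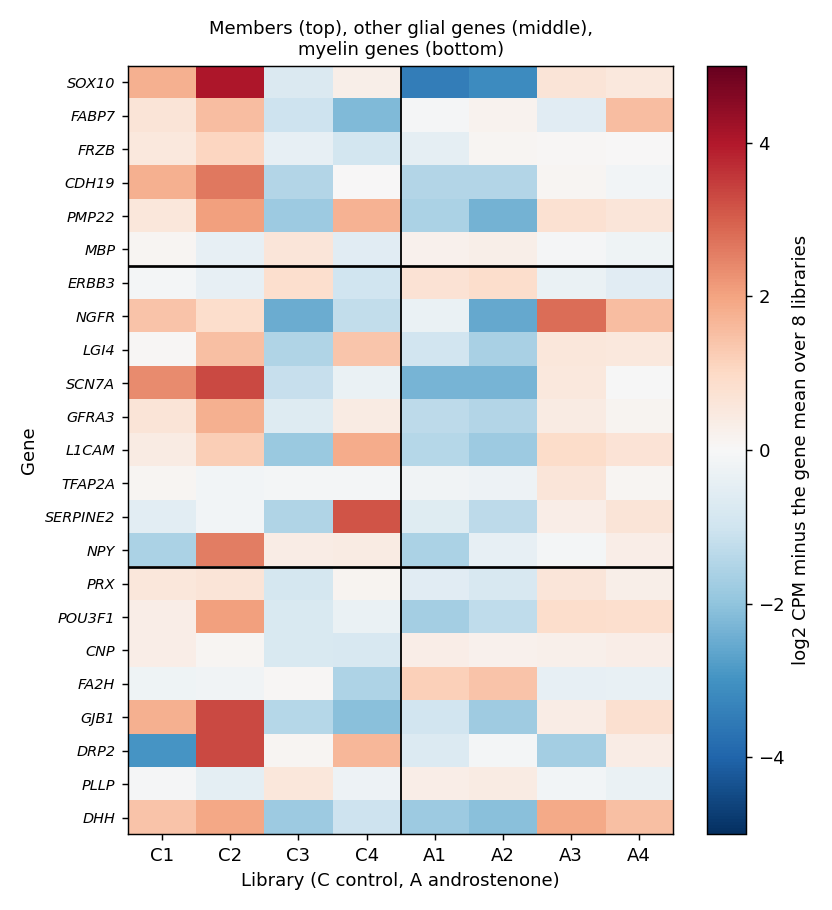
Log2 CPM of each gene minus its mean over the 8 libraries (colour), for the 6 glia genes (top), 9 other glial genes (middle) and 8 myelin genes (bottom) that are named in the text, in the control (C1 to C4) and androstenone (A1 to A4) libraries. Control 2 is highest in TPM for 5 genes of the top, 4 of the middle and 5 of the bottom block. Some genes of the middle and bottom blocks were named for their pattern over the libraries. Over the 14 tested genes of each full list, 5 glial lineage and 8 myelin genes are highest in control 2, beside 21.8% of all genes tested.

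NPY and GJB1 were singled out after their values were seen, because they were much higher in control 2 than in the other libraries. NPY, a peptide that ensheathing glia and sympathetic axons hold, was at 2.89 TPM in control 2 and listed at no more than 0.507 TPM elsewhere. That is a ratio of 5.70 to the next library. However, NPY had only 64 counts over all libraries and was at 0 in control 1. Such a 0 allowed up to 0.718 CPM, while the mean of NPY in the control group was 0.141 CPM. Control 1 thus cannot be placed below control 2 for NPY. GJB1, the connexin of myelinating Schwann cells, was at 4.24 TPM in control 2, 1.42 TPM in control 1 and at most 0.646 TPM in the others.

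The libraries with the lowest SOX10, CDH19 and PMP22 were also the lowest for some genes of the other lists. Control 3, androstenone 1 and androstenone 2 held the 3 lowest levels for 3 of the 6 glia genes, for 5 of 14 genes of the glial lineage and for 3 of 14 myelin genes. The same was true of 4 of 5 fibroblast genes, 3 of 9 cartilage genes, 0 of 7 genes of olfactory neurons and of 12.7% of all genes tested, a set of libraries chosen after the values were seen. The genes of the glial lineage were LGI4, SCN7A, GFRA3, L1CAM and SERPINE2, and the myelin genes PRX, POU3F1 and DHH. Over all genes, control 3 was also nearer to androstenone 1 and androstenone 2 than to control 2 or control 4.

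**Figure D4:**
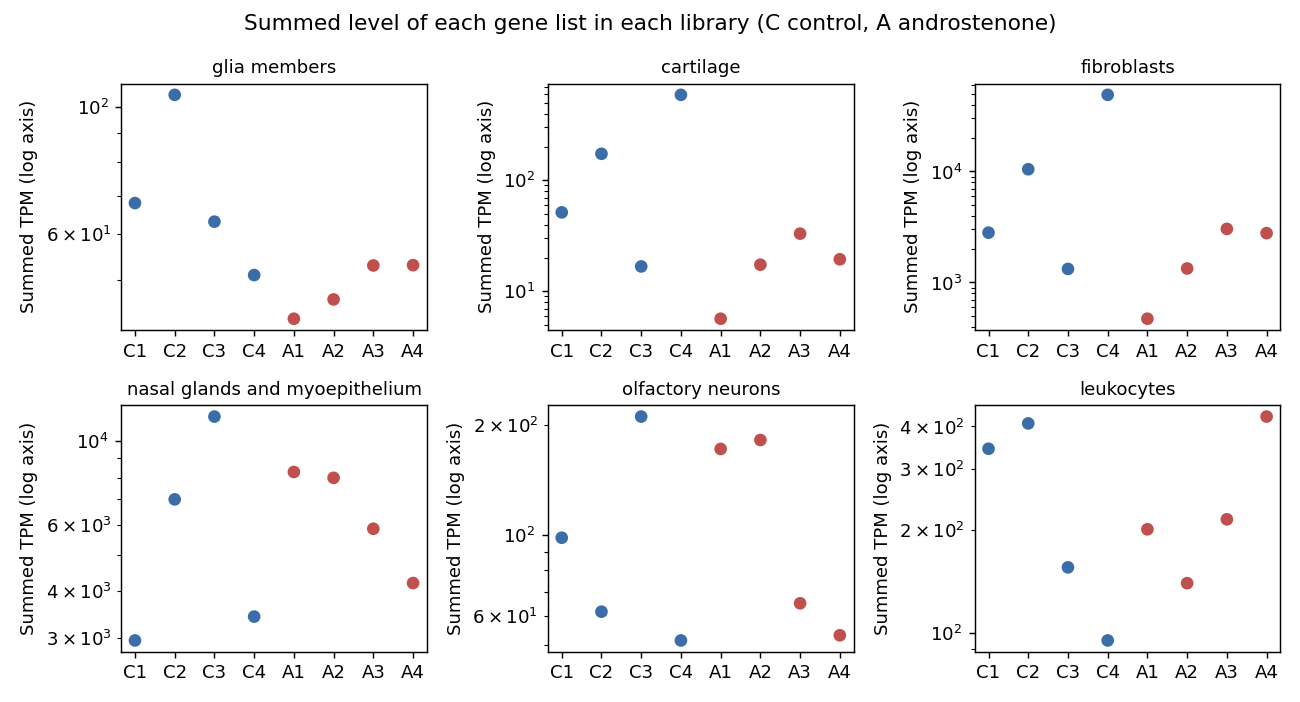
Summed TPM of 6 gene lists (vertical axes, logarithmic) in the control (C1 to C4, blue) and androstenone (A1 to A4, red) libraries. Control 2 is highest for the glia genes, control 4 for cartilage and fibroblasts, and control 3 for glands and olfactory neurons. STOML3 makes up most of the olfactory neuron sum, and its cell source was not tested.

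Markers of other cells that use the same genes moved between libraries as well. The 9 cartilage genes summed to 16.8 to 590.5 TPM in the control group and 5.67 to 33.1 TPM in the androstenone treatment group. Of the 9, 6 were called as lower, beside 4.38% of all genes tested. These were ACAN, COL11A2, HAPLN1, COL9A1, COMP and MATN1, and all but MATN1 were highest in control 4. COL11A2 lost its call without control 4, and COMP without control 4 or any 1 androstenone library. ACAN, the cartilage proteoglycan, was at 99.7 TPM in control 2 and 188.7 TPM in control 4, against 0.225 to 4.13 TPM in the other 6 libraries. The 5 fibroblast genes summed to 1324 to 49016 TPM in the control group and 471 to 3037 TPM in the androstenone treatment group, and 1 of the 5, COL1A1, was called as lower (log2 fold change -4.36, and -1.64 with the call lost without control 4). Of the gland list, 7 of 10 genes were tested and LPO was called as lower (log2 fold change -1.90, and -0.91 with the call lost without control 2), and the list summed to 2959 to 11616 TPM in the control group and 4202 to 8281 TPM in the androstenone treatment group. LTF, the lactoferrin of serous gland cells, was at 3006 TPM in control 2 and at 384 to 1196 TPM in the other 7. The part of cartilage, fibroblasts and glands in the levels of SOX10, FRZB and PMP22 was not tested.

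The markers of olfactory neurons differed widely in level. Of 9 genes, 8 were paired with an identifier, RTP2 was listed at 0 in every library and 7 were tested. Of the 7, 0 were called, beside 6.42% of all genes tested. STOML3, a stomatin-like protein of olfactory cilia, was at 34.9 to 190.2 TPM and made up most of their sum. Which cells its transcripts came from was not tested, so that the sum need not follow the number of olfactory neurons. The following order is that of STOML3 alone. STOML3 was highest in control 3, androstenone 1 and androstenone 2, the libraries with the least SOX10, CDH19 and PMP22. The other markers did not all share that order. CNGA2, a subunit of the olfactory cyclic nucleotide-gated channel, was highest in androstenone 2, at 5.01 TPM. RTP1 was at most 0.0380 TPM and GNG13 at most 0.493 TPM. ADCY3, the adenylyl cyclase of olfactory cilia, was at 6.25 to 15.0 TPM and highest in control 2. GNAL, the olfactory G protein alpha subunit, was at 0.497 to 8.87 TPM, highest in control 3 and lowest in androstenone 1. In tissue labelled as OE, STOML3 and ADCY3 were thus present in every library, whereas RTP1, RTP2 and GNG13 were at or below 0.493 TPM. Of the markers of central glia, 0 of the 6 tested were called, beside the same 6.42%. MOG, a myelin protein of oligodendrocytes, was at 0.607 to 1.74 TPM, GFAP at 0.232 to 1.13 TPM and AQP4 at 0 to 0.593 TPM, while OLIG2 was at 0 in 6 of 8 libraries.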

How the data were processed

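RNA-seq was made from the OE of 4 sows, with 4 libraries per group. Reads were trimmed by the authors (fastp 0.23.1) and assigned to Ensembl transcripts of the Sscrofa11.1 build (Kallisto 0.48.0), and the authors deposited TPM and estimated counts per gene. The labels do not state how transcripts were combined into genes. The ratio of estimated count to TPM between libraries was the same for all 13299 genes compared, so that the deposited counts are TPM rescaled by a constant per gene and a total per library. Counting intervals and floors are therefore approximate, and cover counting error only.

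Counts were rounded, and genes with at least 1 count were tested with edgeR 4.0.16 (TMM, quasi-likelihood, group only) in R 4.3.3. CPM are of TMM-scaled totals, floors (3 counts) of library totals. The standard error is the log2 fold change divided by the square root of F. The test was checked on simulated counts. Names came from a table that paired 15527 of 22516 identifiers. Coordinates are RefSeq's for Sscrofa11.1, matched by symbol. No sequences are shown. The values of some genes of the lists are not reported here.

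Members and lists (glial lineage, myelin, central glia, olfactory neurons, axons, cartilage, glands, melanocytes, fibroblasts, leukocytes) were chosen with earlier results of these data known. Beside the members, the 3 most abundant genes of each list, those called, and the 2 genes most like each member were named. The alternatives were DESeq2 1.42.0, the likelihood ratio test, RLE, library size only, filterByExpr, limma 3.58.1 on log2(TPM + 0.1) and log2(TPM + 1), a replicate block, p below 0.01 and each library left out. Leaving out control 1 and control 4 together, and the alternatives for the other lists, were added after seeing the data.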

Additional observations from a re-analysis of the deposited data

Results flagged for a closer look

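In 11 of 106 groups of 4 libraries examined for the named genes and the list sums, the gap of the highest or lowest library to its neighbour was too large a part of the group's range by Dixon's test at the 95% level. The test picks out 1 in 20 groups by chance only for independent, normally distributed values. The TPM of these libraries and genes need not be such, so that 11 of 106 cannot be set against that share. Among the glia genes this was the case for FRZB, which was lowest in androstenone 1 (ratio 0.893). CNP, the cyclic nucleotide phosphodiesterase of myelin, stood out in androstenone 4 (0.902) and SERPINE2 in control 4 (0.915), where COL11A2 (0.981), COMP (0.947) and COL1A1 (0.912) were also far above the other control libraries. COL11A2 was also far higher in androstenone 2 than in the other androstenone libraries (0.960). STMN2, a microtubule protein of growing axons, was highest in control 2 (0.882) and in androstenone 4 (0.909). PTPRC stood out in androstenone 4 (0.874) and BPIFA1 in control 3 (0.961).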

How the results depend on the processing

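The counts of genes called, 1368 in all with 934 lower and 434 higher, changed most with the setting. Limma on log2(TPM + 0.1) gave 727 genes (427 lower), and limma on log2(TPM + 1) gave 321 (169 lower, 152 higher). At p below 0.01 there were 368 (202 lower, 166 higher). Without controls 1 and 4 there were 881, with 206 higher. With each library left out, the count ranged from 867 (without androstenone 1; 881 without androstenone 2) to 2414 (without control 3), with 565 to 1463 lower and 263 to 951 higher. After adjustment, DESeq2 gave 670 genes, the likelihood ratio test 200, limma on log2(TPM + 0.1) 2 and library size only 1, in place of 0. The count of glia genes called was 0 and became 2 in DESeq2 and in the likelihood ratio test, and 0 to 2 with each library left out. Of the other lists 12 genes were called, 4 with limma on log2(TPM + 1), 4 at p below 0.01, and 8 to 19 with each library left out. The log2 fold changes ranged from -3.33 to -1.04 for SOX10, -2.81 to -0.71 for CDH19 and -1.76 to -0.87 for PMP22 with each library left out, lowest without androstenone 3, control 3 and androstenone 3, and highest without control 2. FRZB ranged from -0.58 to 0.12, FABP7 from -0.48 to 1.29 and MBP from -0.092 to 0.35. Without controls 1 and 4, FABP7 turned to -0.30 and MBP to -0.15. The log2 ratio of group means on TMM-scaled CPM was 0.13 for FABP7 and 0.068 for MBP, against -0.043 and -0.076 in TPM. CDH19 did not pass filterByExpr. The replicate numbers did not pair the libraries, since deviations of same-numbered libraries correlated at -0.035, -0.50, -0.60 and 0.17. With the replicate block 583 genes were called (301 lower, 282 higher), 4 of the other lists, and 0 of the glia genes. Calls in other lists that single libraries ended, beside those in the report, were those of LPO without control 1 or any androstenone library but androstenone 3, and of GAP43. The causes were not tested. The number of counts limits CDH19 most, with 2 to 10 counts in 7 libraries.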

Other observations

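Of the 10 axon genes, 8 were tested. GAP43 and NCAM1 were called as lower, and UCHL1 as higher, in the androstenone treatment group at the unadjusted cutoff, and 5 were not called. Of all genes tested, 4.38% were called as lower and 2.04% as higher. NCAM1, an adhesion molecule of neurons and glia, was at 24.3 TPM in control 2 and 78.4 TPM in control 4, against 0.882 to 3.27 TPM in the other 6 libraries. GAP43, a protein of growing axons, was at 0.521 to 1.27 TPM in the control libraries and 0.321 to 0.648 TPM in the androstenone libraries. UCHL1, a neuronal ubiquitin hydrolase, was at 1.07 to 6.69 TPM in the control libraries and 4.53 to 14.3 TPM in the androstenone libraries. The ranges of both groups overlapped for all 3 genes. The log2 fold change of GAP43 was -1.05, and the call was lost without control 2, control 4 (-0.74) or androstenone 1, 2 or 3 (-1.01, -0.94 and -1.05). That of NCAM1 was -3.96, and -2.21 without control 4, with the call kept.

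NGFR, the low-affinity neurotrophin receptor of Schwann cells and ensheathing glia, did not follow SOX10. It was highest in androstenone 3, at 40.7 TPM, and at 1.01 TPM in androstenone 2. This gene was chosen after its values were seen. The 6 melanocyte genes, which could share SOX10, had 0 calls, beside 6.42% of all genes tested. They summed to 10.2 to 12.7 TPM in the control group and 7.37 to 11.6 TPM in the androstenone treatment group. The sum was 10.2 TPM, the lowest of the control group, in control 2. The single genes did not share that order. In control 2, MITF was at 5.34 TPM, its lowest in the control group, and MLANA at 0. TYR (0.156 TPM) was highest there, and DCT (2.53 TPM) second highest of the 8 libraries. PMEL and TYRP1 were at 0.758 and 1.37 TPM there. MITF was at 4.37 to 8.77 TPM, DCT at 1.29 to 3.29 TPM and TYRP1 at 0.896 to 2.56 TPM. Of the 4 leukocyte genes 0 were called, beside the same 6.42%. Their sum was highest in androstenone 4 (427 TPM) and control 2 (408 TPM), the libraries with the most FABP7. CD79A was at 46.6 to 274.0 TPM, PTPRC at 28.4 to 97.0 TPM and CD3E at 11.9 to 54.4 TPM. Of the remaining abundant list genes, DCN (163 to 8266 TPM) and COL3A1 (117 to 7196 TPM) of the fibroblasts were highest in control 4, and PIGR (714 to 3688 TPM) of the glands in control 3.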
